A study of Mus musculus with 4 samples.

Results

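The transcription factors of naive pluripotency examined here are 10 genes of mouse embryonic stem (ES) cells: Klf4, Klf5, Klf2, Tfcp2l1, Esrrb, Nr5a2, Nr0b1, Tbx3, Zfp42 and Prdm14. Their probes were found by matching the accession of each array probe to a RefSeq transcript of a member, which gave 13 of the array's 41124 usable probes. They cover 9 members, out of 17008 genes that RefSeq transcripts name on the array. Klf2 and Zfp42 are each read by 2 probes, Tfcp2l1 by 3 and the other 6 genes by 1. No probe matched a transcript of Prdm14, which represses FGF receptor genes in ES cells, and it was not analysed here.

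The study compared 2 FBL-knock down samples with 2 control samples of ES cells carrying a Tc-inducible FBL knock-down, all grown for 2 days on gelatin with the cytokine LIF. The FBL-knock down samples were kept without Tc (tetracycline), whereas the control samples had Tc at 1000 ng/mL, so that an effect of Tc itself and an effect of losing FBL cannot be told apart. FBL is fibrillarin, the nucleolar enzyme that adds methyl groups to the ribose of ribosomal RNA. Each sample was read on 1 single-colour Agilent array, with n = 2 per group. Nothing in the labels tells whether the pair in a group came from separate cultures, or how the line was cloned. The p-values therefore rest on a spread between arrays that could be purely technical.

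Mouse ES cells held in LIF resemble the epiblast before implantation. LIF acts through the kinase JAK and the factor STAT3, and Wnt signalling lifts repression by TCF7L1 from genes such as Esrrb. The factors downstream of both inputs bind one another's genes and those of Oct4, Sox2 and Nanog, and their transcripts decline as cells leave the naive state for the formative and primed states.

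Levels below are log2 processed signals relative to the 75th percentile of the same array, so that 1 unit is a 2-fold difference, and a level is compared only between arrays for the same probe. Changes are FBL-knock down minus control. The 75th percentile itself was a signal of 635 and 501 in FBL-knock down samples 1 and 2, and 558 and 801 in controls 1 and 2. Between 24480 and 26386 probes per array were well above background, and all 13 member probes were so on all 4 arrays. FBL-knock down sample 2 was on a slide of its own and the other 3 arrays shared a slide. Fbl stood at 5.98 and 5.94 in the FBL-knock down samples, against 8.63 and 8.12 in the controls, a 5.34-fold fall (limma adjusted p = 6.39e-04). The 6 ES cell markers Pou5f1, Sox2, Nanog, Sall4, Dppa4 and Dppa5a were well above background on all arrays. So were 7 of 8 trophectoderm, 4 of 7 primitive endoderm and 3 of 7 fibroblast markers, while the fibroblast genes Col3a1, Dcn and Postn and the endoderm gene Pdgfra were so on no array.

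Of the 9 measured genes, Nr0b1, Tfcp2l1, Klf5 and Tbx3 fell in the FBL-knock down samples by 1.86-fold to 2.32-fold, at 5 of the 13 probes. None of the 13 rose. The transcripts of Klf4 and Klf2 showed changes near 0, and those of Esrrb, Nr5a2 and Zfp42 had lower means that did not pass the test. A probe is said to have risen or fallen where limma, fitted on all 25078 tested probes, gave it a Benjamini-Hochberg adjusted p under 0.05 (n = 2 per group throughout). In the same fit 5.92% of all tested probes passed, with 2.4% falling and 3.53% rising. The median change was −0.57 over the 13 member probes, beside −0.06 over all tested probes. Both FBL-knock down values lay below both control values at 10 of the 13 probes, beside 30.9% of all tested probes. The genes were picked with earlier results of these data known, so these counts are descriptions. In whole cultures, fewer cells of a type and less RNA per cell cannot be told apart.

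**Figure D1:**
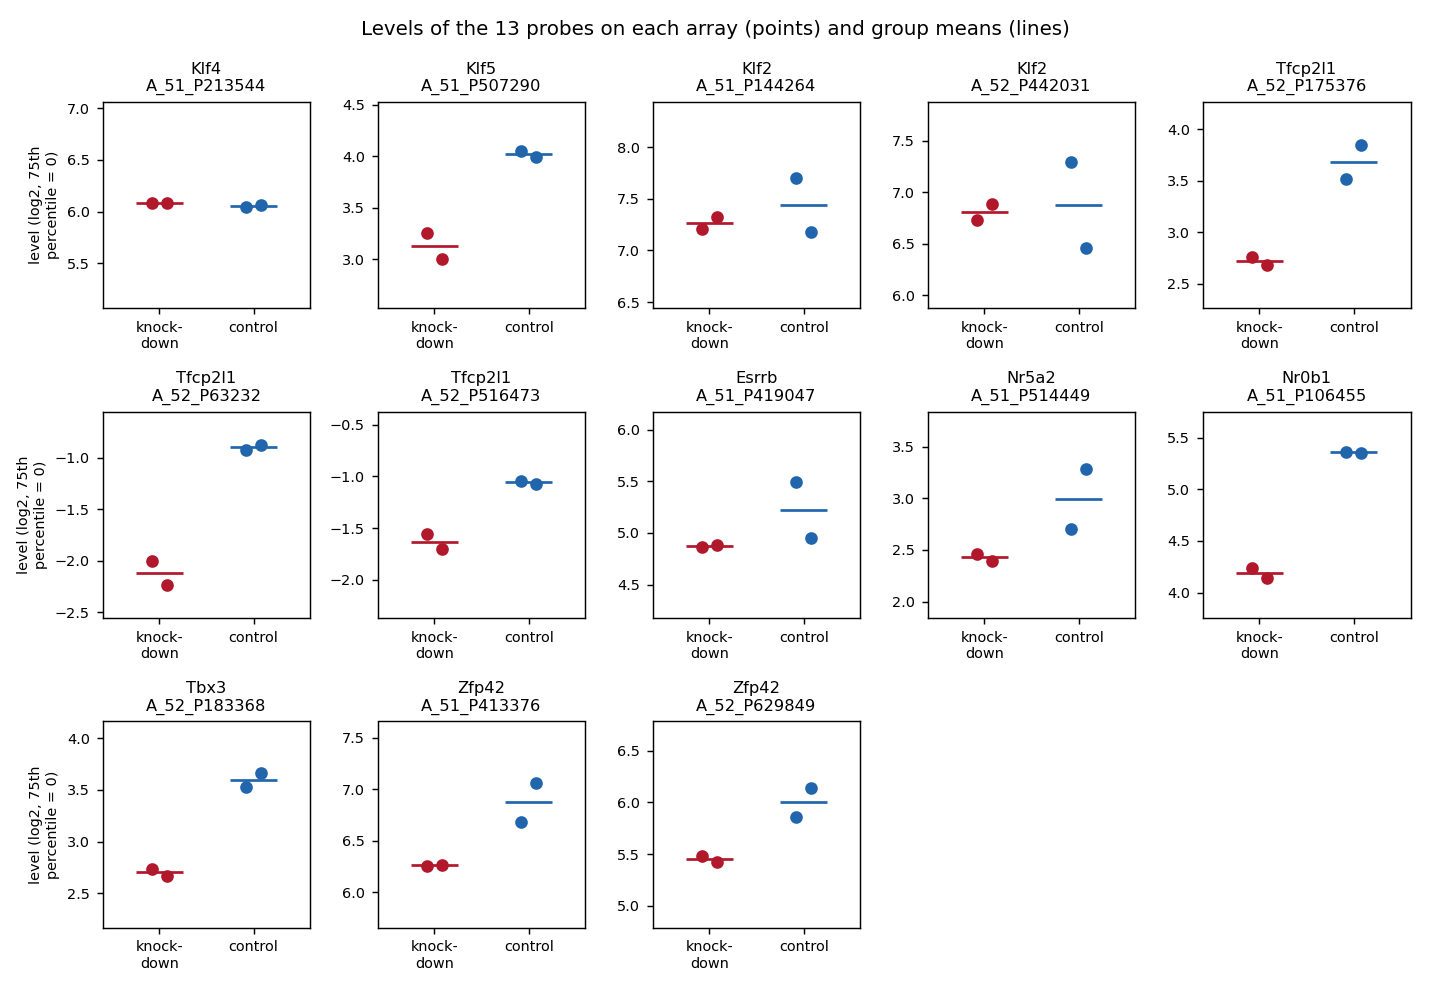
Level of each of the 13 probes (log2 signal, 75th percentile of the array at 0; every panel spans 2 units) in the 2 FBL-knock down samples (left, red) and the 2 controls (right, blue), with the group mean as a line. The groups stand far apart for Nr0b1, Klf5, Tbx3 and Tfcp2l1, while the controls of Klf2, Esrrb and Nr5a2 lie apart from each other.

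The KLF genes encode zinc finger factors that bind GC-rich and GT-box DNA, and Klf2, Klf4 and Klf5 can stand in for one another in part in ES cells. Klf5, which is also needed in the blastocyst, fell. Its level was 3.25 and 3.002 in the FBL-knock down samples, against 4.05 and 3.99 in the controls. Both FBL-knock down values lay below both controls, and the change was −0.90 ± 0.23 (SE), with a 95% interval of −1.41 to −0.39 and an adjusted p of 0.0491 in limma. This value lies at the edge of the threshold: the call ended with quantile normalization (adjusted p = 0.0683) and with the 75th percentile taken over bright probes (0.0594).

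Klf4, a direct STAT3 target and one of the reprogramming factors, had the closest values of all the members. It stood at 6.08 and 6.08 in the FBL-knock down samples, against 6.05 and 6.06 in the controls. The change was 0.03 with a 95% interval of −0.46 to 0.52 (limma adjusted p = 0.966), so a change of 1.43-fold upwards remained within its interval.

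Klf2, a relative of Klf4 that also sustains self-renewal when forced, was read by 2 bright probes. The probe A_51_P144264 gave 7.21 and 7.33 in the FBL-knock down samples, against 7.70 and 7.18 in the controls. The probe A_52_P442031 gave 6.73 and 6.89 in the FBL-knock down samples, against 7.29 and 6.46 in the controls. At both probes the FBL-knock down values fell inside the range of the controls, where control 1 was high and control 2 low. The changes were −0.18 (95% interval −0.74 to 0.38) and −0.06 (−0.72 to 0.59). They turned to 0.08 and 0.35 without control 1, and the second also changed sign in other alternatives, 3 of 14 in all.

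Klf5 and Klf4 were also compared within each array. The log2 ratio of Klf5 to Klf4, set to a control mean of 0, was −0.80 and −1.05 in the FBL-knock down samples, against 0.04 and −0.04 in the controls. The ratio of Klf2 to Klf4 at probe A_51_P144264 was −0.26 and −0.14 in the FBL-knock down samples, against 0.26 and −0.26 in the controls, so that the groups overlapped. Such ratios do not depend on how the arrays were scaled. The pair was chosen with the values of both genes known, so the ratio is a description and was not tested.

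Tfcp2l1 encodes a CP2-family factor that is induced by both LIF and Wnt signalling, and it fell at 2 of its 3 probes. At its brightest probe, A_52_P175376, the level was 2.77 and 2.68 in the FBL-knock down samples, against 3.52 and 3.85 in the controls (change −0.96 ± 0.23 SE, 1.94-fold, limma adjusted p = 0.0418). At probe A_52_P63232 it was −2.004 and −2.23 in the FBL-knock down samples, against −0.92 and −0.88 in the controls (change −1.22 ± 0.23 SE, 2.32-fold, adjusted p = 0.0126). At probe A_52_P516473 it was −1.56 and −1.70 in the FBL-knock down samples, against −1.04 and −1.07 in the controls (change −0.57, 95% interval −1.07 to −0.08, adjusted p = 0.183). All 3 probes carry the same accession, all separate the groups in the same direction, and their 95% intervals overlap. The 2 dimmer probes had processed signals of 106.9 to 215 in the FBL-knock down samples and 271 to 436 in the controls, whereas the brightest one had 3220 to 4322 in the FBL-knock down samples and 6395 to 11547 in the controls. The call at the brightest probe ended with quantile normalization (adjusted p = 0.0919) and with bright-probe scaling (0.0657), whereas that at A_52_P63232 held under both. Under normexp background correction, which bears most on dim spots, the change at A_52_P63232 was −0.73 and still passed. That fit gave every probe the same standard error of 0.235, so passing rested on the size of the change alone.

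**Figure D2:**
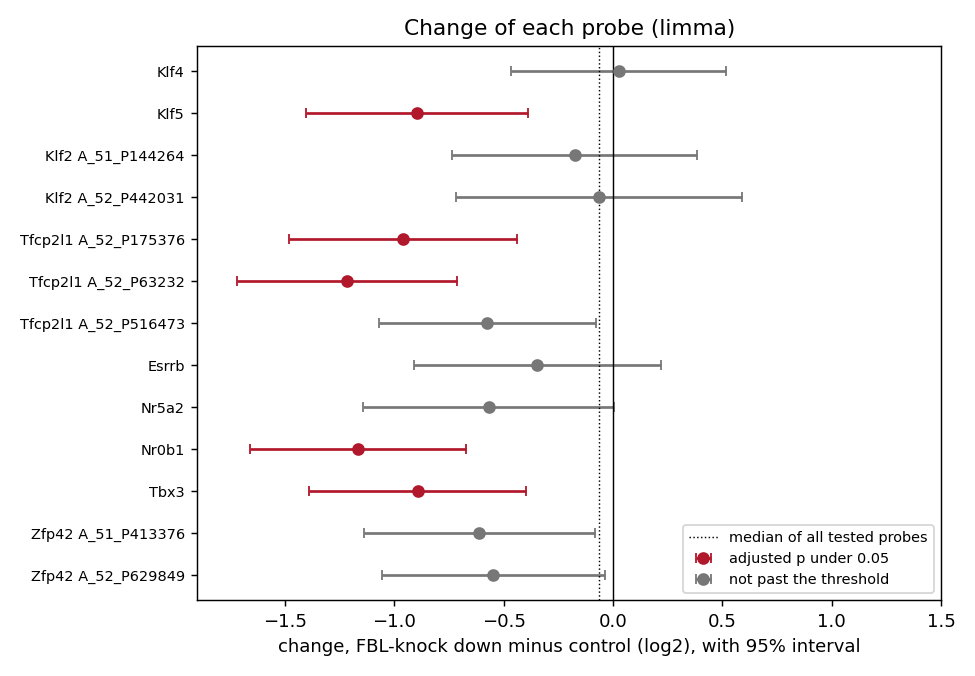
Change of each probe (FBL-knock down minus control, log2) with its 95% interval from limma; red probes passed an adjusted p of 0.05, the others did not, and the dotted line is the median of all tested probes at −0.06. The red intervals all lie below 0, and the intervals of Klf4, Klf2, Esrrb and Nr5a2 span 0.

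The next members, Nr0b1, Esrrb and Nr5a2, are orphan nuclear receptors. Nr0b1 encodes DAX1, which lacks the usual DNA-binding domain and binds other nuclear receptors, and it had one of the tightest separations. Its level was 4.24 and 4.14 in the FBL-knock down samples, against 5.36 and 5.36 in the controls. The samples of each group lay far closer to each other than to the other group. The change was −1.17 ± 0.22 (SE), a 2.24-fold fall with a 95% interval of 1.59-fold to 3.16-fold (limma adjusted p = 0.0136). It ranged from −1.22 to −1.10 over 14 distinct alternatives. Several of these alter only the estimate of spread or the set of probes, so they could not move the change. The call ended without the filter on dim probes (adjusted p = 0.234) and where an FBL-knock down sample was left out.

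Esrrb, an activator held down by TCF7L1 when Wnt signalling is low, stood at 4.86 and 4.89 in the FBL-knock down samples, against 5.49 and 4.95 in the controls. The FBL-knock down values lay just under control 2 and well under control 1. The change was −0.35 (95% interval −0.91 to 0.22, limma adjusted p = 0.502). It was −0.08 without control 1 and −0.62 without control 2, where it passed (adjusted p = 0.0482).

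Nr5a2 encodes LRH-1, which binds regulatory DNA of the Oct4 gene Pou5f1, and its 2 controls also lay apart. Its level was 2.46 and 2.40 in the FBL-knock down samples, against 2.70 and 3.28 in the controls. The change was −0.57 (95% interval −1.14 to 0.01, limma adjusted p = 0.255). It was −0.86 without control 1, where it passed (adjusted p = 0.0243), and −0.28 without control 2. For Esrrb control 1 was the higher one and for Nr5a2 control 2 was, so that leaving out a control moved these genes in opposite ways.

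Tbx3, a T-box factor that can sustain self-renewal when it is forced, fell. Its level was 2.74 and 2.66 in the FBL-knock down samples, against 3.53 and 3.66 in the controls. The groups did not overlap, and the change was −0.89 ± 0.22 (SE), a 1.86-fold fall (limma adjusted p = 0.0461). As for Klf5, the call ended with quantile normalization (adjusted p = 0.0784) and with bright-probe scaling (0.0616).

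Zfp42, which encodes the zinc finger protein REX1 and is the usual reporter gene of the naive state, was lower at both probes without passing. At probe A_51_P413376 the level was 6.26 and 6.27 in the FBL-knock down samples, against 6.69 and 7.06 in the controls (change −0.61, 95% interval −1.14 to −0.08, limma adjusted p = 0.182). At probe A_52_P629849 it was 5.48 and 5.43 in the FBL-knock down samples, against 5.86 and 6.14 in the controls (change −0.55, 95% interval −1.06 to −0.03, adjusted p = 0.218). The groups were separate at both probes and the controls were further apart than the FBL-knock down samples. Without control 1 both probes passed, with changes of −0.80 and −0.69 (adjusted p = 0.0264 and 0.0334).

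Within the 3 arrays that shared a slide, which leaves out FBL-knock down sample 2, the changes were −1.12 for Nr0b1, −1.10 and −0.92 for the 2 called Tfcp2l1 probes, −0.86 for Tbx3 and −0.77 for Klf5. In that limma fit none of the 13 member probes passed (3 had an unadjusted p under 0.05). Without FBL-knock down sample 1 none passed either (5 had an unadjusted p under 0.05), with changes of −1.22 for Nr0b1 and −1.02 for Klf5. A fit that leaves out a control takes its spread from the FBL-knock down pair alone, and one that leaves out an FBL-knock down sample takes it from the controls. Both fits without an FBL-knock down sample gave every probe the same standard error of 0.45, so passing depended only on the size of the change. Under normexp every probe likewise had a standard error of 0.235, and with the replicate block one of 0.3, so the same limit applies there. Without the filter on dim probes none passed in limma (5 at an unadjusted p under 0.05), and no probe on the array did.

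Pou5f1, the Oct4 gene, offers a comparison within each array that does not rest on the scaling. Its own level was 6.26 and 6.32 in the FBL-knock down samples, against 6.63 and 6.08 in the controls (change −0.07, limma adjusted p = 0.922). Relative to Pou5f1, with the control mean set to 0, Nr0b1 was −1.02 and −1.18 in the FBL-knock down samples, against −0.27 and 0.27 in the controls. Klf5 was −0.68 and −0.99 in the FBL-knock down samples, against −0.24 and 0.24 in the controls. Of the 13 probes, 10 had both FBL-knock down ratios below both control ratios, 3 overlapped and none lay above, beside 18.7% of all tested probes whose ratios to Pou5f1 lay below both controls. The 3 that overlapped were Klf4, Nr5a2 and 1 probe of Klf2.

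The promoters of the genes that fell most are shown beside that of Zfp42, because the letters bound by several members and by their partners can be sought in them. RefSeq start sites of build GRCm38.p6 gave promoters for 7 members, and the 250 bases before the start were searched on both strands for 5 motifs: the STAT3 palindrome TTCNNNGAA, the half-site AAGGTCA read by ESRRB and NR5A2, the TCF/LEF core ATCAAAG, the octamer ATGCAAAT read by OCT4 and the KLF GT-box GGGTGTGG. Capitals mark matches, and none of the motifs overlapped another in these sequences.
Tfcp2l1 promoter, chr1:118627695-118627944, plus strand: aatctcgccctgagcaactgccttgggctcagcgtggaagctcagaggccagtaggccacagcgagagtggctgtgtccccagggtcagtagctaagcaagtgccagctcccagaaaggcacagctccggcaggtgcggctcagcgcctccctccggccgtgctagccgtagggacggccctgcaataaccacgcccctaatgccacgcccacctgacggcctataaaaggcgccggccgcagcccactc
Nr0b1 promoter, chrX:86191525-86191774, plus strand: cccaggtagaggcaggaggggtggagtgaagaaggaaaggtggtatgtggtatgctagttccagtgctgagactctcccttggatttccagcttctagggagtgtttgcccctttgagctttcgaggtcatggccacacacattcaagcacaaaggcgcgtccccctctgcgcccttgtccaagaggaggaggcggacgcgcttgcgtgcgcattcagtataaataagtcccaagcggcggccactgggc
Zfp42 promoter, chr8:43307010-43307259, minus strand: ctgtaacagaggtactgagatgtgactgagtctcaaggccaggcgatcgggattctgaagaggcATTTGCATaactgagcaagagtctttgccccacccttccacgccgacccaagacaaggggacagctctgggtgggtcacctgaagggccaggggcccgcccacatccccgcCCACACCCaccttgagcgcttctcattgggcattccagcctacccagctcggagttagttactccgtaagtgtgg
The Zfp42 window held an octamer at positions −186 to −179 from the start and a KLF GT-box at −75 to −68, both on the opposite strand. Among all 32851 promoter windows of this length, 1.6% held the octamer and 3.2% the GT-box. The windows of Tfcp2l1 and Nr0b1 held no match to these 5 sets of letters. The window before one of the Esrrb starts held the STAT3 palindrome as TTCGTGGAA at −178 to −170, which 7.02% of windows did. These are matches of letters in short windows and not measured binding sites.

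The genes around the naive factors were counted on lists, each gene by its brightest probe. In limma 5015 of all 25078 tested probes had an unadjusted p under 0.05, the share beside which the unadjusted counts of the lists stand. Of the 4 core factors none passed in limma (1 had an unadjusted p under 0.05). Nanog, which sits at the centre of the naive network, stood at 3.54 and 3.38 in the FBL-knock down samples, against 4.29 and 4.28 in the controls, and its change of −0.83 missed the threshold (adjusted p = 0.0619). It passed in 6 of the alternatives tried, which include normexp (adjusted p = 0.0207) and the fit with trend (0.0158). Sox2 had a change of 0.29 and Sall4 one of −0.22, with 0.22 at the other Sall4 probe. Of 12 other ES cell genes, such as Dppa3 and Fbxo15, none passed in limma (2 at an unadjusted p under 0.05), and their changes ran from −0.82 to 0.36 around a median of −0.03. Of the 12, 6 were lower and 6 higher. The lowest were Eras (−0.82, limma adjusted p = 0.0727) and Tcl1 (−0.71, 0.130), named after their values were seen. Under normexp 2 genes of this list fell, and with trend 2 did. Beside the median of −0.06 for all genes, the naive factors had the lower median, a difference that was not tested.

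Among the signals that feed the naive factors, the LIF, JAK and STAT3 list had 8 of 10 measured genes lower, a median of −0.37 and no call in limma (3 at an unadjusted p under 0.05, all lower). Stat3 itself had a change of −0.01 and its feedback inhibitor Socs3 one of 0.01. The 3 lower genes were the kinase gene Jak2 (−0.93), the STAT3 target Gbx2 (−0.71) and the LIF receptor gene Lifr (−0.67). All 5 were named after their values were seen, and the 3 other Lifr probes had changes of −0.43 to −0.13. Of 10 Wnt and beta-catenin genes 5 were lower and 5 higher, and 1 rose in limma (2 at an unadjusted p under 0.05, of which 1 lower). The lower one was Axin2, with a change of −0.73 (limma adjusted p = 0.0974), named after its values were seen. The gene that rose was Lef1, a nuclear partner of beta-catenin that is also a primed epiblast gene. Lef1 stood at −2.75 and −2.65 in the FBL-knock down samples, against −3.81 and −3.90 in the controls (change 1.15, limma adjusted p = 0.0149). Of 11 FGF and ERK genes 1 rose, the receptor gene Fgfr2, with −1.24 and −1.20 in the FBL-knock down samples, against −2.28 and −2.20 in the controls (change 1.02, adjusted p = 0.0251). The 2 other Fgfr2 probes had changes of 0.33 and 1.23, and under normexp the call ended (0.64, adjusted p = 0.101). Of the 11 FGF and ERK genes, 8 had lower changes, and the median was −0.17. Within the shared slide the calls of Lef1 and Fgfr2 ended (adjusted p = 0.290 and 0.434), as they did without FBL-knock down sample 1. Among 9 measured regulators of exit from the naive state none passed in limma (1 at an unadjusted p under 0.05), and changes ran from −0.81 to 0.29.

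Genes of the formative and primed epiblast moved most among these lists: 5 of 9 measured rose and 2 fell, beside 3.7% and 2.49% of all genes taken by their brightest probe. Otx2, a homeobox factor of the formative state, stood at 0.79 and 0.80 in the FBL-knock down samples, against −0.96 and −0.83 in the controls, a 3.22-fold rise (limma adjusted p = 0.00208). The others that rose were Pou3f1, Fgf5 and Lef1, named after their values were seen. Fgf5 was well above background on 3 arrays, so it was not tested where all 4 were asked for, and under normexp its change was 0.32 (adjusted p = 0.570) in place of 1.31. Sall2 rose 3.14-fold (adjusted p = 0.00329). The calls of Otx2 and Sall2 held within the shared slide. Zic2 fell with a change of −2.21 (adjusted p = 0.0426), but its controls lay apart at −3.68 and −1.53, and Foxd3 fell with a change of −0.92 (adjusted p = 0.0483). With quantile normalization the calls of Zic2 and Foxd3 ended (adjusted p = 0.122 and 0.0554), and within the shared slide that of Foxd3 ended (0.702). The number of these genes that rose was 3 within the shared slide, 3 without FBL-knock down sample 1 and 0 without the filter on dim probes.

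Relatives of the naive factors, each taken by its brightest probe, gave no call in limma. None of 13 other measured KLF genes passed (3 at an unadjusted p under 0.05), with changes from −0.81 to 0.68. Dimmer probes of some KLF genes lay beyond this range: −1.22 for Klf12, −1.01 for Klf8 and 0.79 for Klf6. None of 11 paralogs and partners passed either (1 at an unadjusted p under 0.05), with changes from −1.34 to 0.48. The lowest of these was Nr0b2, the paralog of Nr0b1, which was well above background on 3 arrays and had an adjusted p of 0.107 in limma. It was named after its values were seen, and 1 gene of the list passed with the replicate block.

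**Figure D3:**
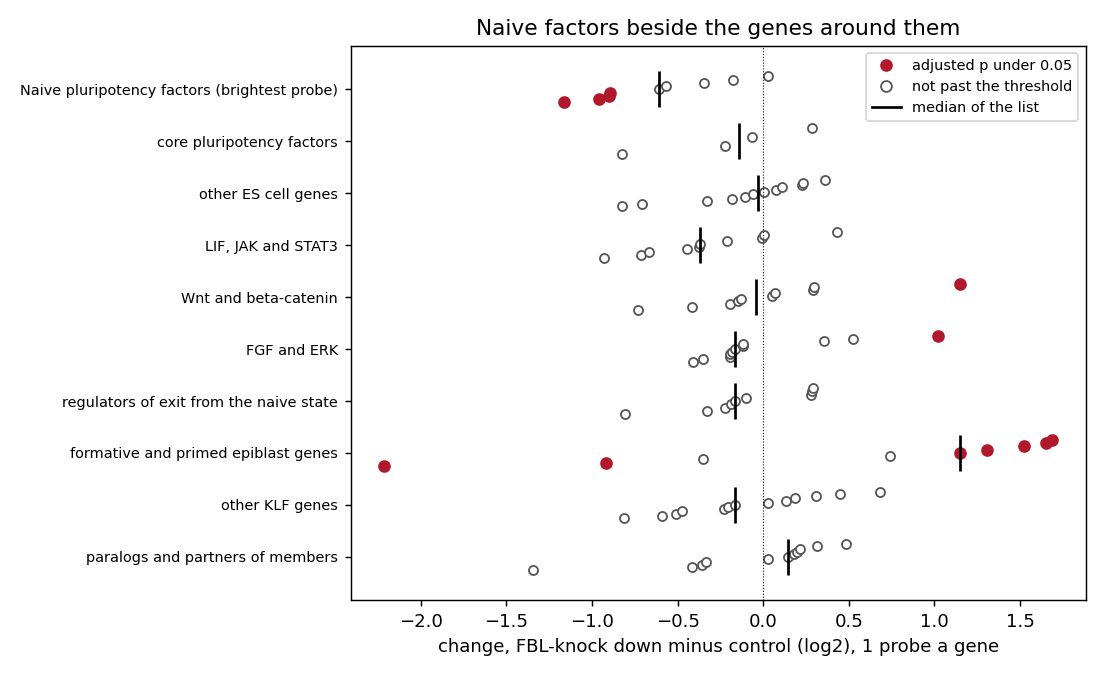
Change of each gene (FBL-knock down minus control, log2, 1 probe a gene) for the 9 measured naive factors and 9 lists of genes around them; red points passed an adjusted p of 0.05 and black bars are list medians. Red points lie to the left among the naive factors and mostly to the right among the formative and primed genes.

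Markers of other cell types were summed as well. Such a sum rests mostly on the brightest probes and does not describe each marker. The summed linear level of 8 trophectoderm markers was 33.4 and 30.2 in the FBL-knock down samples, against 25.9 and 20.5 in the controls, in multiples of the 75th percentile. The bright marker Tfap2c stood at 4.60 and 4.37 in the FBL-knock down samples, against 3.79 and 3.54 in the controls. Of the 8 markers, 4 had higher and 4 lower changes. None of the 8 rose in limma and 1, Elf5, fell (5 at an unadjusted p under 0.05, of which 4 higher). Those 4 were Cdx2, Tfap2c, Gata3 and Hand1, with changes of 0.83, 0.82, 0.76 and 0.70, named after their values were seen. The markers Eomes, Krt8 and Krt18 had changes of −0.37, −0.32 and −0.08. With the filter asking for all 4 arrays, 2 trophectoderm markers rose. Elf5 fell (change −1.63, limma adjusted p = 0.0257). Elf5 was well above background on 3 arrays, and its change was −1.04 within the shared slide (adjusted p = 0.376) and 0.12 under normexp (0.890). The sum of 7 primitive endoderm markers was 0.32 and 0.29 in the FBL-knock down samples, against 0.49 and 0.38 in the controls. Of 6 tested, 4 were lower and 2 higher (3 at an unadjusted p under 0.05 in limma, of which 1 higher). Sox7 fell 4.45-fold (adjusted p = 6.17e-04), a call that ended under normexp (change −0.21, adjusted p = 0.760). Sox17 was higher without passing (0.79, and 1.86 at its other probe). Gata4 was lower without passing (−1.86), with controls apart at −3.08 and −5.61. The sum of 7 fibroblast markers was 3.20 and 3.51 in the FBL-knock down samples, against 6.72 and 4.29 in the controls. None of the 3 tested fibroblast markers passed in limma (1 at an unadjusted p under 0.05): the change was −0.76 for Thy1, 0.46 for Col1a1 and 0.26 for Col1a2. The other Thy1 probe had a change of −1.35. Under normexp 1 fibroblast marker fell, and with trend 1 did. The part of these shifts in the changes of the naive factors was not tested.

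**Figure D4:**
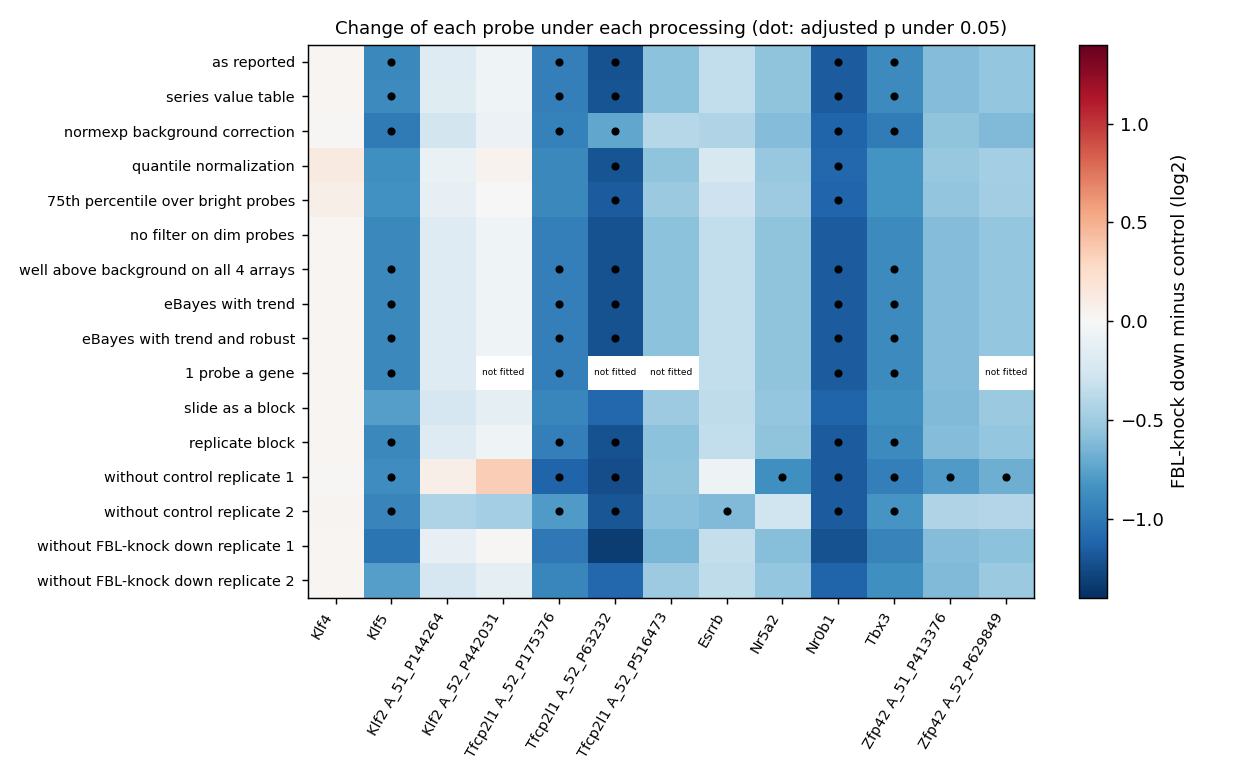
Change of each of the 13 probes (columns; FBL-knock down minus control, log2, blue for lower and red for higher) under each processing (rows), with a dot where the adjusted p was under 0.05. Nr0b1 and Tfcp2l1 at A_52_P63232 keep the most dots, whereas Klf4, both Klf2 probes and Tfcp2l1 at A_52_P516473 have none. The rows that leave out an FBL-knock down sample or the filter hold none.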

How the data were processed

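Per the file headers, the deposited spot intensity is the processed signal of Agilent Feature Extraction 10.7.3.1 for each spot. The deposited series value table holds log2 values with the 75th percentile of each array at 0. It was used as an alternative, and over the member probes it differed from the values printed here by at most 0.00647. The array design is of mouse build mm8.

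Outlier-flagged spots were left out, which dropped 50 probes, and 0 spots were saturated. The log2 signals of repeated spots were averaged by probe, and the 75th percentile of each array was subtracted. A probe was tested if both arrays of either group had it well above background (25078 probes), with limma 3.58.1 (lmFit and eBayes, two-sided) in R 4.3.3, adjusted over all of them by Benjamini-Hochberg. Names came from RefSeq transcripts of GRCm38.p6, which named 24350 probes. The normexp alternative (offset 50) used the median spot signal.

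The text names all member probes, Fbl, the 4 core factors, up to 2 rising and 2 falling called genes with the largest change of each of 12 lists, and 3 genes nearest in profile to each called member probe, out of 16889 probes well above background on all arrays. Other genes named were chosen after their values were seen. The members and lists were chosen with earlier results of these data known. The number of arrays limits the precision.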

Additional observations from a re-analysis of the deposited data

How the results depend on the processing

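Over 14 distinct alternatives (the slide as a block is the same fit as leaving out FBL-knock down sample 2), none of the member probes rose in limma. In the fits that kept all 4 arrays, 5 to 9 member probes had an unadjusted p under 0.05 in limma, all of them lower. Of 5 falling member probes, 5 passed with the series value table, normexp, the all-array filter, trend, and trend and robust, 4 with 1 probe a gene (2 of the probes are of the same gene), 2 with quantile normalization and 2 with the 75th percentile over bright probes. None passed without the filter or with the slide as a block, and leaving out 1 array gave 0 to 8 of the 13 member probes, with probes of Nr5a2, Zfp42 or Esrrb added where a control was left out. Over all probes, 884 rose and 601 fell. Without the filter 0 did (3882 at an unadjusted p under 0.05). With trend 975 fell, with trend and robust 1379 rose and 1130 fell, and with the slide as a block 459 and 224. Leaving out 1 array gave 459 to 3170 rising and 224 to 2586 falling probes. Of the 103 tested genes of the other lists, 6 rose and 4 fell. Without the filter 0 did, with the slide as a block 3 and 2, and with trend and robust 10 and 12. With trend 11 fell, under normexp 9, with quantile normalization 1 and with bright-probe scaling 1. Leaving out 1 array gave 3 to 20 rising and 2 to 13 falling genes. The change of Elf5 turned to 0.12 under normexp (adjusted p = 0.890). The cause was not tested in any of these cases, beyond fewer samples where an array was left out.

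The replicate numbers of the titles were not used as pairs in the main fit. The deviations of same-numbered samples from their group means correlated at 0.0235 across probes. This value cannot settle whether those samples were handled together. With the replicate block, 5 member probes fell as before, 1026 of all probes fell and 7 genes of the other lists fell. That fit gave every probe the same standard error of 0.3, so passing rested on the size of the change alone.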

Other observations

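For each of the 5 called member probes, the 3 genes whose profile over the 4 arrays lay closest were sought, by the root mean square difference of levels after subtracting each probe's own mean. For Klf5 these were Jade2, Mthfd1l and Stmn2 (0.0215 to 0.029). For Tfcp2l1 at its brightest probe they were Ccdc14, Slc16a1 and Cobl (0.0152 to 0.0204), and at A_52_P63232 Rab6b, Chd3 and B3galnt1 (0.0265 to 0.042). For Nr0b1 they were B3galnt1, Rab6b and Pde9a (0.0208 to 0.0341), and for Tbx3 Scd1, Mrpl19 and Mboat2 (0.0225 to 0.0325). Each profile has 4 values in 2 groups.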
